A study of Mus musculus with 8 samples.

Results

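The autophagy genes described here are 35 genes that encode the machinery of macroautophagy, and they were taken by gene symbol from the 53801 genes of a mouse count table. All 35 symbols matched a gene identifier in the table, and 34 of the 35 genes passed the filter on low counts and were tested. RNA had been sequenced from small intestinal Paneth cells of 8 mice, 4 controls and 4 knockouts. All 8 mice carried Lgr5-EGFP-IRES-CreERT2, in which the promoter of the stem cell gene Lgr5 drives a tamoxifen-inducible Cre recombinase, and the gain-of-function allele β-cat GOF, in which Cre deletes exon 3 of β-catenin, so Wnt signalling was activated genetically in both groups. Controls were Mll1+/- and knockouts were Mll1-/- after recombination of the Mll1 flox alleles. Mll1 is a histone methyltransferase that places activating marks on histone H3. Mutagenesis was induced at 4 to 6 weeks of age with 1 mg tamoxifen on 3 consecutive days, and crypts were taken 10 d after induction.

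Recombination by this Cre leaves a mosaic of recombined and non-recombined crypts. The methods paragraph on sorting names mice with the Mll1 alleles and no β-cat GOF allele, whereas the series names β-cat GOF in both groups, and the groups are given here as the series has them. About 300 cells per sample were sorted by CD24 and EpCAM, with CD45 also stained, and amplified by Smart-seq2. In such a bulk sample, fewer cells of a type and less RNA per cell cannot be told apart. The animal numbers in the titles fall into 2 ranges. Controls 1 and 2 and knockouts 1 and 2 have the lower numbers and are called the first library set here. The other libraries are called the second. The sets were read from these numbers, and whether they were prepared or sequenced as separate batches is not known here. The titles give control 4 and knockout 4 a single animal number with opposite genotypes, a doubt that was not resolved here.

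The libraries held between 13037832 and 14380240 counts. Values are given as normalized CPM, counts scaled to library size and to the TMM factor of the library, and 3 counts correspond to between 0.172 and 0.352 normalized CPM. Knockout 3 stood apart, with 19662 genes detected against 22623 to 26074 in the others, a TMM factor of 0.632 against 0.822 to 1.34, and 87.8% of its counts in the 50 most abundant genes. The targeted gene Kmt2a, which encodes Mll1, had 45.1, 37.2, 24.1 and 22.4 normalized CPM in controls 1 to 4 and 31.1, 25.7, 38.5 and 28.4 in knockouts 1 to 4 (log2 fold change −0.06, SE 0.24, adjusted p = 0.995). Its estimate was −0.54 within the first library set and 0.54 within the second, where both knockouts lay above both controls, an interaction of 1.06 (SE 0.34, unadjusted p = 0.011, adjusted p = 0.867). Counts over the whole gene include exons outside any floxed part, so they do not check the labels, and knockout means the labelled genotype throughout. Paneth markers such as Lyz1 and the defensin gene Defa24 were abundant in every library, at 16100 normalized CPM or more for Lyz1. Markers of some other epithelial cells were unequal between genotypes. The 5 enteroendocrine markers (Chga, Chgb, Neurod1, Neurog3, Tac1) summed to 125 to 363 normalized CPM in controls and 18.9 to 135 in knockouts. All 5 had an unadjusted p under 0.05, beside 6.88% of all tested genes. With edgeR the lowest adjusted p of the 5 was 0.0629, for Neurod1, and with DESeq2 Neurod1 had 9.65e-06 and Chga 0.0361. The 6 stem cell markers summed to 703 to 1520 against 273 to 952, a sum carried by Olfm4 (mean 874 in controls). Of the 6, Olfm4 (log2 fold change −1.11, unadjusted p = 0.0371), Slc12a2 (−0.85, unadjusted p = 0.00903) and Ascl2 (−0.82, unadjusted p = 0.0465) had lower estimates and Axin2 a higher one (0.90, unadjusted p = 0.0127), and the estimates of Lgr5 and Smoc2 were 0.04 and −0.05. Among the enterocyte markers, Fabp2 had −1.07 (unadjusted p = 0.00202, adjusted p = 0.279 with edgeR and 0.0422 with DESeq2) and Sis −1.44 (unadjusted p = 0.0375). Every knockout lay below every control for Slc12a2, Fabp2, Neurod1 and Neurog3, as in 1.93% of all tested genes. The 8 goblet markers ranged from −5.05 to 0.76, with 4 higher and 4 lower estimates and a median of 0.03. The lowest of them, Fcgbp and Zg16, had −2.24 (unadjusted p = 0.00394) and −5.05 (unadjusted p = 0.0411). Both were highest in control 3, at 266 normalized CPM for Fcgbp and 303 for Zg16, and without it the estimates were −1.40 and −2.82. The 5 tuft cell markers summed to 110 to 319 against 54 to 208. Stromal markers summed to at most 1.4. The part of these other cells in the values below was not tested.

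Autophagy begins when the Ulk kinase complex activates the class III PI3 kinase complex on a membrane. Lipid transfer proteins then enlarge the membrane, and a pair of ubiquitin-like conjugation reactions attaches proteins of the Atg8 family (the LC3 and Gabarap proteins) to it. Cargo receptors bind Atg8 proteins and bring in the material to be degraded. In Paneth cells, which release lysozyme and defensins from large granules, the conjugation proteins Atg16l1, Atg5 and Atg7 and the GTPase Irgm1 are known for their roles in granule packaging and lysozyme secretion. Irgm1 belongs to the immunity-related GTPases, a family induced by interferon, as do Irgm2 and Igtp.

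Promoter stretches of these 3 genes are shown first because their differences between genotypes had the lowest unadjusted p-values among all autophagy genes examined. The sequences are from RefSeq on GRCm38.p6, each printed 5′ to 3′ on the strand of its gene. Capitals mark the longest run of bases found before the start site in all 3 genes.
Irgm1: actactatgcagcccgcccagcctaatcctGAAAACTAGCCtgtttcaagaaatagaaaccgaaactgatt
Irgm2: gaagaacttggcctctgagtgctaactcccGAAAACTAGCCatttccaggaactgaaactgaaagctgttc
Igtp: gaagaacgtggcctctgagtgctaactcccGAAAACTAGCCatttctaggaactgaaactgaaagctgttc
The Irgm1 stretch lies at chr11:48871429-48871499 on the minus strand, with the run from −49 to −39 relative to the start site. The Irgm2 stretch lies at chr11:58214859-58214929 and the Igtp stretch at chr11:58199468-58199538, both on the plus strand, with the run from −88 to −78 in Irgm2 and from −58 to −48 in Igtp. Irgm2 and Igtp are close relatives and share a longest run of 55 bases before their start sites.

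RefSeq promoter windows of 300 bases, from 250 before to 50 after the start site, were matched for 30 of the 35 genes. There were none for Rb1cc1, Becn1, Atg12, Atg16l1 and Map1lc3a. The run of 11 bases shared by the GTPase genes was held, on either strand, by 4 of all 32851 windows of the same length (0.0122%), and Irgm1 was the only autophagy gene of the 30 among them. The run was found by comparing these same 3 promoters, so their presence in that count is given by the way it was found, and it describes the letters only.

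To ask whether loss of Mll1 changed the RNA of the autophagy machinery in Paneth cells, all genes were tested together with edgeR's quasi-likelihood test. Of the 34 tested autophagy genes, 18 had a higher and 16 a lower estimate in the knockouts, and none was called, where a call needs both an adjusted p no higher than 0.05 and a size of 0.5 or more on the log2 scale, as was met by 0.186% of the 13439 tested genes. None had an adjusted p of 0.1 or lower either, against 0.283% of tested genes, and the lowest adjusted p was 0.48. DESeq2's Wald test also gave 0 autophagy genes at an adjusted p of 0.1 or lower, against 1.42% of the genes it tested. An unadjusted p under 0.05 was found for Irgm1 and Becn1, both higher in the knockouts, which is 2 of 34 beside 6.88% of all tested genes. In no member did the 4 knockouts all lie above or all below the 4 controls, as they did in 4.52% of tested genes.

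The median log2 fold change of the 34 genes was 0.03, with a range from −0.56 for Atg2b to 1.21 for Becn1, and the median over all tested genes was 0.01. The difference was under 0.5 in size in 26 of the 34 genes, or 76.5%, beside 76.2% of all tested genes. The 95% interval of the fold change stayed within a 2-fold change in either direction for 17 of the 34 genes, beside 45.6% of all tested genes. For the remaining 17 the interval reached beyond a 2-fold change.

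**Figure D1:**
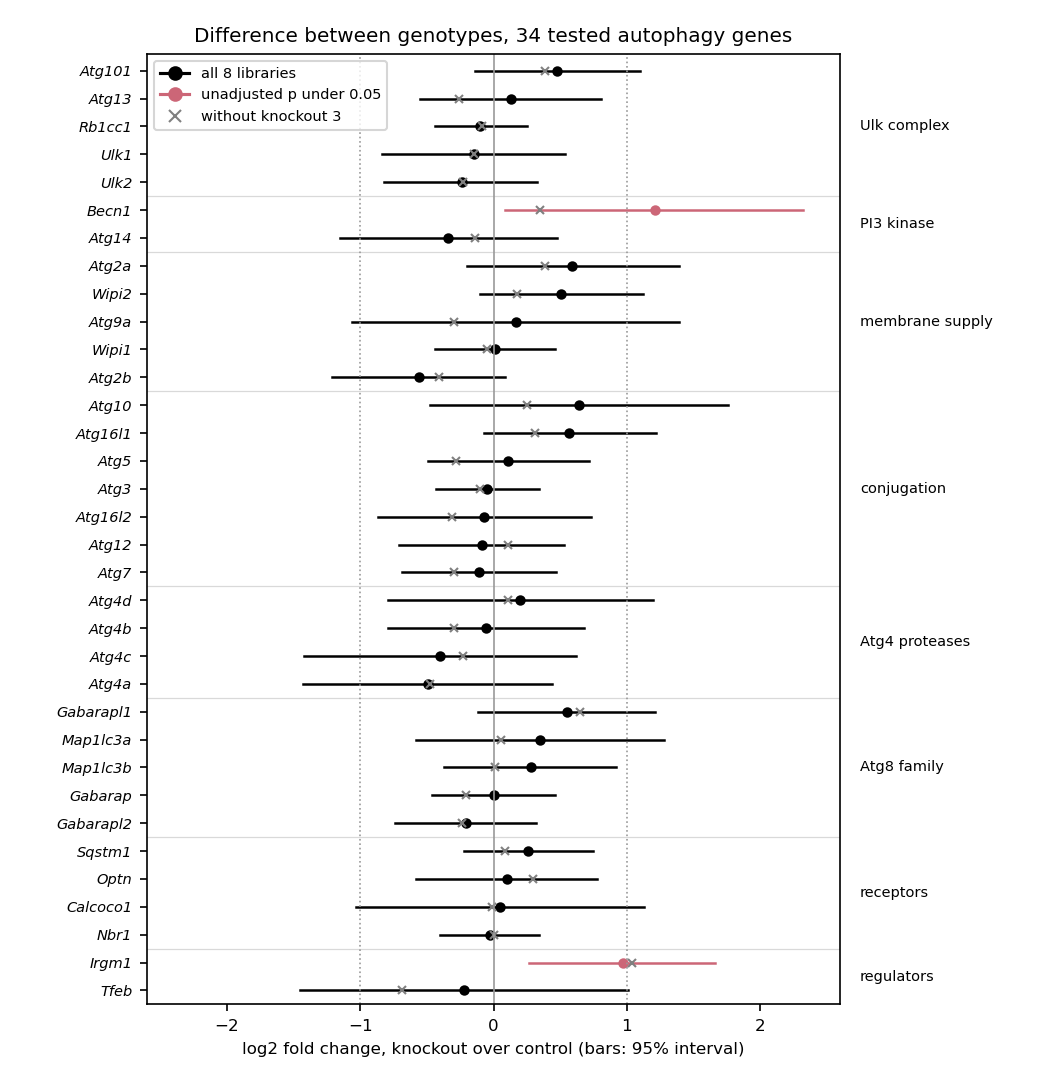
Log2 fold change of knockout over control for each of the 34 tested autophagy genes, grouped by role, with 95% intervals from edgeR; dotted lines mark a 2-fold change. The intervals of Irgm1 and Becn1 lie above 0, and the crosses, which give the value without knockout 3, show Becn1 at 0.35.

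The levels of the 35 genes spanned a wide range. Per kilobase of exon, Gabarap had the highest mean level at 55.5 normalized CPM per kb, followed by the receptor Sqstm1 at 11, the conjugation gene Atg5 at 8.94, Gabarapl2 at 6.3 and the E2-like enzyme Atg3 at 5.5. The lowest were Calcoco1 at 0.267, Atg4d at 0.265, Atg9a at 0.264, Tfeb at 0.149 and Lrrk2 at 0.014. Gabarap was above every other member in every library, at 41 to 77.6 against at most 16.1. Levels of neighbours in this order overlapped between libraries, as for Sqstm1 (7.62 to 16.1) and Atg5 (6.66 to 16.1). The lengths are those of all annotated exons merged, 7517 bases for Map1lc3b, so a gene with many annotated exons is placed lower than its main transcript would be. The sum over the 35 genes was 404 to 443 normalized CPM in the controls, 397 to 451 in knockouts 1, 2 and 4 and 592 in knockout 3.

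**Figure D2:**
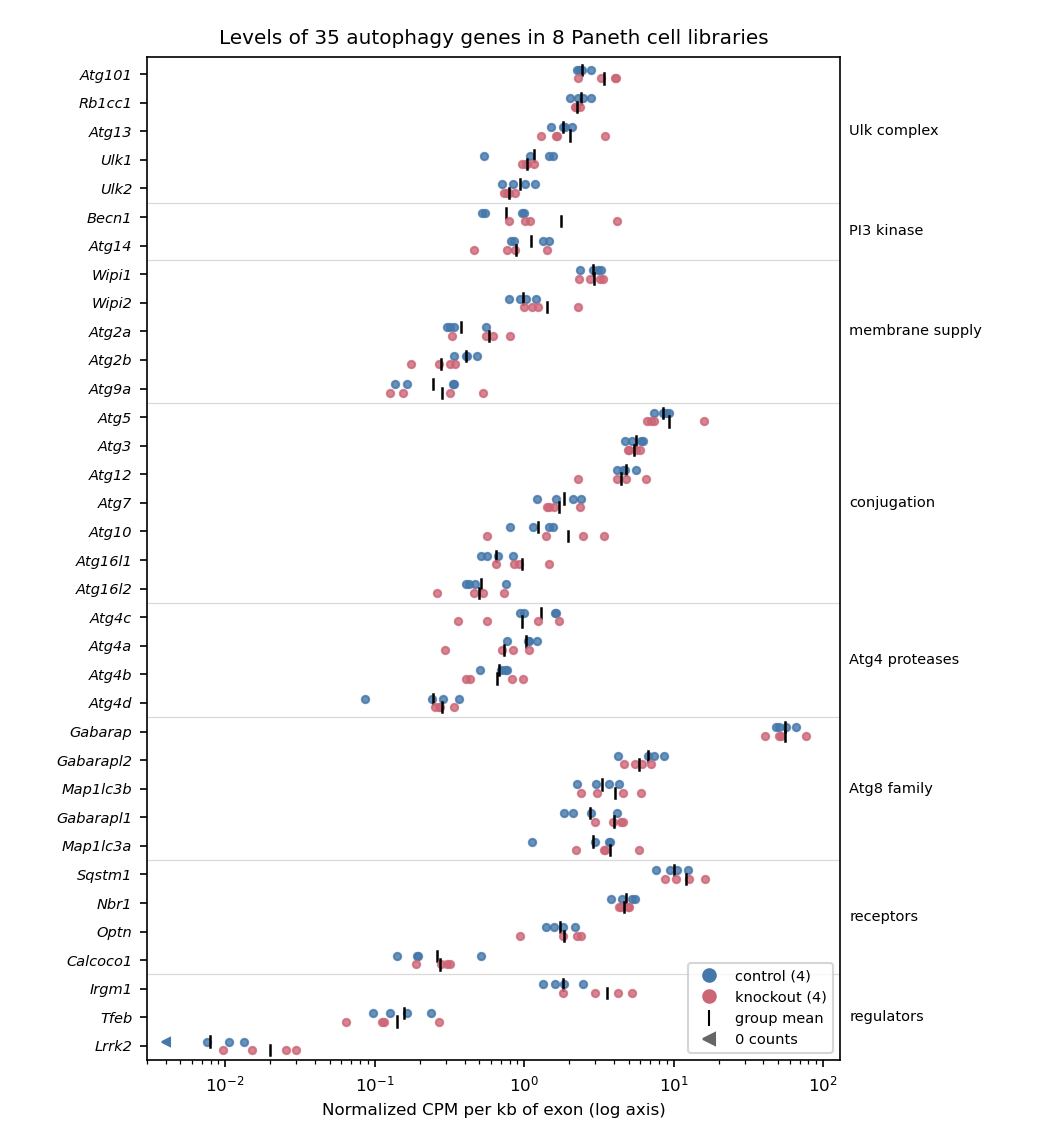
Normalized CPM per kb of exon (log axis) of the 35 autophagy genes in 4 control and 4 knockout libraries, grouped by role; points are libraries and vertical bars are group means. Gabarap is highest at a mean of 55.5 and Lrrk2 lowest at 0.014.

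The Ulk complex phosphorylates the first targets of the pathway. Its 5 genes (the kinases Ulk1 and Ulk2, the adaptors Atg13 and Atg101 and the scaffold Rb1cc1) had log2 fold changes from −0.24 to 0.48, and none was called. Rb1cc1 varied least among mice of 1 group, at 32.1 to 34.7 normalized CPM in the knockouts (CV 3.56%) and 29.8 to 41.3 in the controls, a log2 fold change of −0.10 with a 95% interval from −0.44 to 0.25. Atg101, the highest of the complex per kb, had 4.45, 3.73, 3.59 and 3.87 normalized CPM in controls 1 to 4 and 5.23, 3.67, 6.46 and 6.55 in knockouts 1 to 4. Knockouts 1, 3 and 4 lay above the controls and knockout 2 within them, and the log2 fold change was 0.48 (SE 0.28, adjusted p = 0.849).

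Becn1 and Atg14 are subunits of the PI3 kinase complex that marks the new membrane with PI3P. Becn1 (ENSMUSG00000035086, GRCm38 chr11:101285952-101302286) had 3.70, 3.89, 6.82 and 7.10 normalized CPM in controls 1 to 4 and 7.72, 5.63, 29.7 and 7.16 in knockouts 1 to 4. Knockout 3 lay far above the other 7 libraries, which overlapped between genotypes. The log2 fold change was 1.21 (SE 0.51, unadjusted p = 0.0364, adjusted p = 0.67), and 0.35 (SE 0.29, adjusted p = 0.719) without knockout 3. Becn1 shares 43.9% of its exon bases with Cntd1 on the other strand, and the strand setting of the counting is not given in the sources used here, so reads of the pair cannot be told apart. Atg14 was 3.55 to 6.35 in controls and 2.00 to 6.13 in knockouts, with knockout 3 the lowest (log2 fold change −0.34, SE 0.37, and −0.14 without it).

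The genes that supply lipid and membrane had log2 fold changes of 0.59 for Atg2a, 0.51 for Wipi2, 0.17 for Atg9a, 0.01 for Wipi1 and −0.56 for Atg2b, and none was called. Without knockout 3 they were 0.39 for Atg2a, 0.18 for Wipi2, −0.30 for Atg9a, −0.05 for Wipi1 and −0.41 for Atg2b. The lipid transfer proteins Atg2a and Atg2b are close relatives with estimates of opposite sign, and their 95% intervals (−0.20 to 1.39 and −1.21 to 0.09) each include 0. Wipi1, a PI3P-binding protein, had 12.8, 13.7, 10.4 and 14.4 normalized CPM in controls and 14.9, 12.2, 14.3 and 10.3 in knockouts, and the groups overlapped over their whole range. Wipi2, which recruits Atg16l1 to the membrane, had 8.33 to 12.6 in controls, 10.6 to 13 in knockouts 1, 2 and 4 and 24.2 in knockout 3. Atg9a, the transmembrane scramblase of the pathway, shares 31.8% of its exon bases with Gm29253 on its own strand.

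The 7 conjugation genes had log2 fold changes from −0.11 to 0.64, 3 higher and 4 lower. Atg7 is the E1-like enzyme that activates both Atg12 and the Atg8 proteins. It had 8.46, 16.7, 14.8 and 11.4 normalized CPM in controls 1 to 4 and 10.2, 9.93, 16.6 and 11.1 in knockouts 1 to 4, with the knockouts within the range of the controls (log2 fold change −0.11, SE 0.26, adjusted p = 0.986). Atg5 (ENSMUSG00000038160), which is joined to Atg12, had 21.1, 17.4, 22.1 and 20.0 in controls and 17.5, 15.7, 37.8 and 16.7 in knockouts. Knockout 3 was again the highest library and the other 3 knockouts lay close to or below the lowest control. The log2 fold change of 0.11 (SE 0.28, adjusted p = 0.986) turned to −0.28 (SE 0.16, adjusted p = 0.57) without it. Atg3, the E2-like enzyme for Atg8 proteins, differed little among libraries, at 14.9 to 19.7 in all 8 (log2 fold change −0.05, 95% interval −0.43 to 0.34).

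Atg16l1 (ENSMUSG00000026289, GRCm38 chr1:87755870-87792428) directs the conjugation complex to the membrane, and its human counterpart carries a Crohn's disease risk variant associated with abnormal Paneth granules. It had 6.46, 5.47, 4.94 and 8.13 normalized CPM in controls 1 to 4 and 6.24, 8.21, 14.2 and 8.86 in knockouts 1 to 4. Knockouts 2, 3 and 4 lay above the highest control, knockout 2 only just, and knockout 1 lay within the controls. The log2 fold change was 0.57 (SE 0.30, unadjusted p = 0.0765, adjusted p = 0.788), and 0.31 without knockout 3. The E2-like enzyme Atg10 had a log2 fold change of 0.64 (SE 0.51), or 0.25 without knockout 3, and a CV of 63.3% among knockouts. Atg12 was the lowest in knockout 3, at 5.76 against 10.4 to 16.3 in the other 7 libraries.

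The 4 Atg4 proteases trim Atg8 proteins before conjugation and release them afterwards. Their log2 fold changes were −0.49 for Atg4a, −0.40 for Atg4c, −0.06 for Atg4b and 0.20 for Atg4d, and none was called. Atg4c, the highest of the 4 per kb, had 3.13, 3.33, 5.38 and 5.52 normalized CPM in controls and 5.76, 4.13, 1.88 and 1.21 in knockouts 1 to 4. Knockout 1 was just above the highest control, knockout 2 was within the controls, and knockouts 3 and 4 were below all controls. Within the first library set the log2 fold change was 0.61 and within the second −1.82, an interaction of −2.45 (SE 0.62, unadjusted p = 0.00313) that did not pass adjustment over all tested genes (adjusted p = 0.867). The counts behind Atg4c were 16 to 97 per library.

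The Atg8 family is the part of the machinery that becomes attached to the membrane. Gabarap (ENSMUSG00000018567, GRCm38 chr11:69991143-69994951) had 93.2, 122, 105 and 89.3 normalized CPM in controls and 93.4, 96.6, 143 and 75.6 in knockouts, means of 102 ± 14.6 and 102 ± 28.8 (SD, n = 4). Its fold change was 0.997 with a 95% interval from 0.725 to 1.37. Gabarap made up between 71.9% and 78.6% of the summed per-kb level of the 5 Atg8 genes in every library. Gabarapl2 made up 6.2% to 10.3% of that sum and Map1lc3b 3.45% to 8%. Map1lc3b, which encodes the LC3 protein commonly used to stain autophagosomes, had 16.9, 27.9, 22.6 and 32.6 normalized CPM in controls and 23.2, 18.2, 45.9 and 34.3 in knockouts (log2 fold change 0.28, SE 0.29, adjusted p = 0.945, and 0.01 without knockout 3). Gabarapl1 had the largest estimate of the family at 0.55 (SE 0.30, adjusted p = 0.824), with 3.70 to 8.45 in controls and 5.99 to 9.28 in knockouts, and it shares 28.3% of its exon bases with 1700101I11Rik.

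Cargo receptors link ubiquitin or other tags to Atg8 proteins. The log2 fold changes of the 4 receptors lay between −0.03 (Nbr1) and 0.26 (Sqstm1). Sqstm1 (p62), the best known of them and itself degraded by autophagy, had 25.6, 31.9, 35.4 and 41.8 normalized CPM in controls and 42.8, 35.1, 54.2 and 29.4 in knockouts (log2 fold change 0.26, SE 0.22, adjusted p = 0.916, and 0.09 without knockout 3). Knockouts 1 and 3 lay above the controls and the other 2 within them. Sqstm1 shares 17.3% of its exon bases with Mrnip on the other strand. Nbr1 had 26.2 to 38.2 in controls and 29.8 to 34.4 in knockouts, a fold change with a 95% interval from 0.756 to 1.26. Optn was the lowest in knockout 3, at 3.52 against 5.27 to 9.02 in the other 7 libraries. Calcoco1 was detected with 9 to 47 counts per library.

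Of the 3 regulators, Lrrk2, a kinase linked to Crohn's disease and to lysozyme sorting in Paneth cells, was at the limit of detection. Its counts were 2, 2, 1 and 0 in the controls against 3, 2, 3 and 5 in the knockouts. It did not pass the filter on low counts, and a difference was not detectable at this depth. Tfeb, which activates lysosomal and autophagy genes, had 6 to 17 counts per library. It had 0.940, 1.35, 0.718 and 0.552 normalized CPM in controls 1 to 4 and 0.653, 0.632, 1.53 and 0.364 in knockouts 1 to 4, so the groups overlapped (log2 fold change −0.22, SE 0.56, adjusted p = 0.987).

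Irgm1 (ENSMUSG00000046879, GRCm38 chr11:48861968-48871683, minus strand) had the lowest p-value of the 35 genes. It had 10.8, 9.36, 7.81 and 14.5 normalized CPM in controls 1 to 4 and 30.5, 24.7, 17.2 and 10.6 in knockouts 1 to 4, means of 10.6 ± 2.87 and 20.7 ± 8.73 (SD, n = 4). Knockouts 1 to 3 lay above every control and knockout 4 lay within the controls. The fold change was 1.95 with a 95% interval from 1.21 to 3.16 (log2 fold change 0.97, SE 0.32, unadjusted p = 0.0106), and it did not pass adjustment over all genes (adjusted p = 0.48). In edgeR fits that left out 1 library at a time the log2 fold change stayed between 0.73 and 1.19. It was 0.73 without knockout 1, 1.15 without control 4 and 1.19 without knockout 4.

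The estimate for Irgm1 was larger in the first library set than in the second. Within the first set, the log2 fold change was 1.45 (SE 0.23, adjusted p = 0.0184), a call that 1.04% of tested genes received in that fit. Within the second set it was 0.31 (SE 0.44). The interaction of genotype and set was −1.16 (SE 0.50, unadjusted p = 0.0454) and did not pass adjustment (adjusted p = 0.867). The sets hold few mice each, and Irgm1 was singled out by its low p-value in the same libraries. A dependence of the difference on the set was therefore not established, and the call within the first set is not separate evidence. Without the filter on low counts, Irgm1 (adjusted p = 0.0197) and Becn1 (adjusted p = 0.0192) were both called, as 0.783% of genes were in that fit. Irgm1 shares no exon bases with another gene.

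Markers of immune cells, which also express Irgm1, were read beside it. The defining markers Cd3e, Cd8a, Itgax and Adgre1 were at 0 or at most 0.188 normalized CPM in all 8 libraries. Ptprc, which encodes CD45, had 12.6, 8.41, 3.86 and 2.92 in controls 1 to 4 and 11.0, 9.02, 1.29 and 1.94 in knockouts 1 to 4, so it was higher in the first library set in both genotypes, and its part in the Irgm1 difference was not tested. Lyz2, also on the list of immune markers, is a near copy of the Paneth gene Lyz1, and like Lyz1 it had its highest value, 624, in knockout 3.

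**Figure D3:**
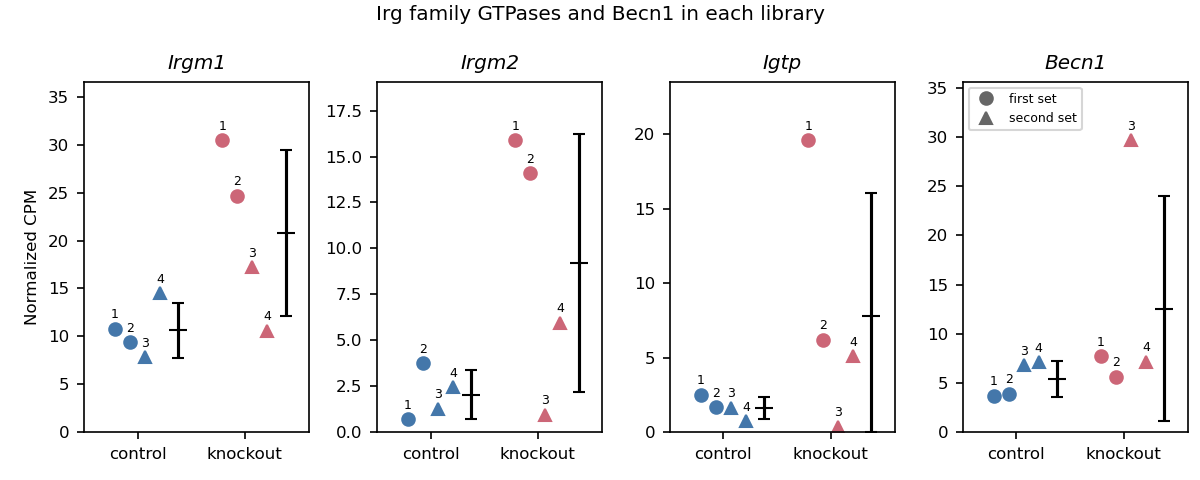
Normalized CPM of Irgm1, Irgm2, Igtp and Becn1 in each library, numbered by replicate, with circles for the first and triangles for the second library set; black bars are the group mean and SD, cut at 0. Irgm1, Irgm2 and Igtp are highest in knockout 1, whereas Becn1 is highest in knockout 3 at 29.7.

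A further 58 genes of the pathway, not among the 35, were examined with the same fit, and 56 of them were tested. None had an adjusted p of 0.1 or lower, 30 had a higher and 26 a lower estimate, and their median log2 fold change was 0.04. An unadjusted p under 0.05 was found for 3 of the 56, beside 6.88% of all tested genes. Irgm2 had 0.689, 3.73, 1.26 and 2.45 normalized CPM in controls and 15.9, 14.1, 0.94 and 5.94 in knockouts 1 to 4 (log2 fold change 2.20, SE 0.71, adjusted p = 0.474). Igtp, also called Irgm3, had 2.51, 1.67, 1.62 and 0.71 in controls and 19.6, 6.20, 0.352 and 5.10 in knockouts (2.26, SE 0.79, adjusted p = 0.523). Knockouts 1, 2 and 4 lay above every control for both genes and knockout 3 did not. Without knockout 3 both were called, with adjusted p = 0.0301 for Irgm2 and 0.0274 for Igtp, as 1.08% of tested genes did in that fit. Without knockout 1, where both were highest, the log2 fold changes were 1.82 for Irgm2 and 1.28 for Igtp, the lowest of the 8 fits that left out 1 library. With DESeq2's Wald test on all 8 libraries, Irgm2 alone of the 56 had an adjusted p of 0.1 or lower (0.097). The 2 genes overlap on the plus strand of chromosome 11 and share 4.4% of the exon bases of Irgm2 and 8% of those of Igtp.

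In these 3 GTPases the libraries were ordered differently. Knockout 1 was the highest in all 3, but knockout 3 was above the controls for Irgm1 and below all other libraries for Igtp, and knockout 4 was above the controls for Irgm2 and Igtp but not for Irgm1. Within the first library set the log2 fold changes were 1.45 for Irgm1, 2.81 for Irgm2 and 2.61 for Igtp, and within the second set 0.31, 0.93 and 1.28.

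The third of these genes, Retreg1, encodes a receptor for degradation of the endoplasmic reticulum. It had 23.9, 22.9, 25.2 and 40.4 normalized CPM in controls and 20.7, 17.3, 19.7 and 21.4 in knockouts (log2 fold change −0.51, SE 0.21, unadjusted p = 0.0332, adjusted p = 0.667), and −0.28 without control 4. Every knockout lay below every control for Retreg1 and for 3 more of the 56 genes, beside 1.93% of all tested genes. Uvrag, a subunit of a Becn1 complex, had 4.05 to 5.84 in controls and 2.35 to 3.86 in knockouts (−0.64, SE 0.30, adjusted p = 0.748), and shares 17.6% of its exon bases with Gm45187 on the other strand. The other genes of this kind fell outside the naming rule and were chosen after their values were seen. They were the receptor Tax1bp1, at 129 to 147 against 90.3 to 118 (−0.32, SE 0.16, adjusted p = 0.771), and Prkaa2, a catalytic subunit of the energy sensor AMPK, at 9.87 to 10.8 against 7.76 to 9.30 (−0.28, SE 0.20, adjusted p = 0.89).

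The Vps genes of tethering complexes, the nutrient regulators and the membrane genes were also among the 58. The 13 fusion genes had a median log2 fold change of 0.06, the 12 nutrient control genes (Mtor, the Tsc genes, AMPK and others) 0.19, and the 6 membrane genes −0.04, and none of these genes had an unadjusted p under 0.05. Stbd1 and the bacterial sensor Nod2, which is linked to Crohn's disease, were too low to be tested, with Nod2 at 0 to 0.815 normalized CPM.

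Knockout 3 was the highest of the 8 libraries for 14 of the 34 tested autophagy genes (41.2%) and the lowest for 4 (11.8%), whereas over all tested genes it was the highest for 26.8% and the lowest for 31%. Genes with their highest value in knockout 3 included Becn1, Atg5, Atg13, Atg16l1, Wipi2, Map1lc3b, Gabarap and Sqstm1. Genes with their lowest value there were Atg14, Atg2b, Atg12 and Optn. In the other 7 libraries the share of autophagy genes at the highest value lay between 2.94% and 14.7%. All 10 Paneth markers were also highest in knockout 3, where they summed to 784619 normalized CPM against 263301 to 558608 in the other libraries, and the stem cell markers had their lowest sum there, 273 against 634 to 1520. Their part in the values of knockout 3 was not tested. The ranks are those of normalized CPM, so they depend on the TMM factor of each library, 0.632 in knockout 3. In counts, Lyz1 was lower there than in control 4 (616487 against 713130), and Gabarap was lower than in knockout 2 (1218 against 1683). Becn1 was highest in knockout 3 in counts as well, at 253 against 49 to 130. Without that library the median log2 fold change of the Paneth markers went from −0.06 to −0.58. For the autophagy genes the median without knockout 3 was −0.07 and still none was called.

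**Figure D4:**
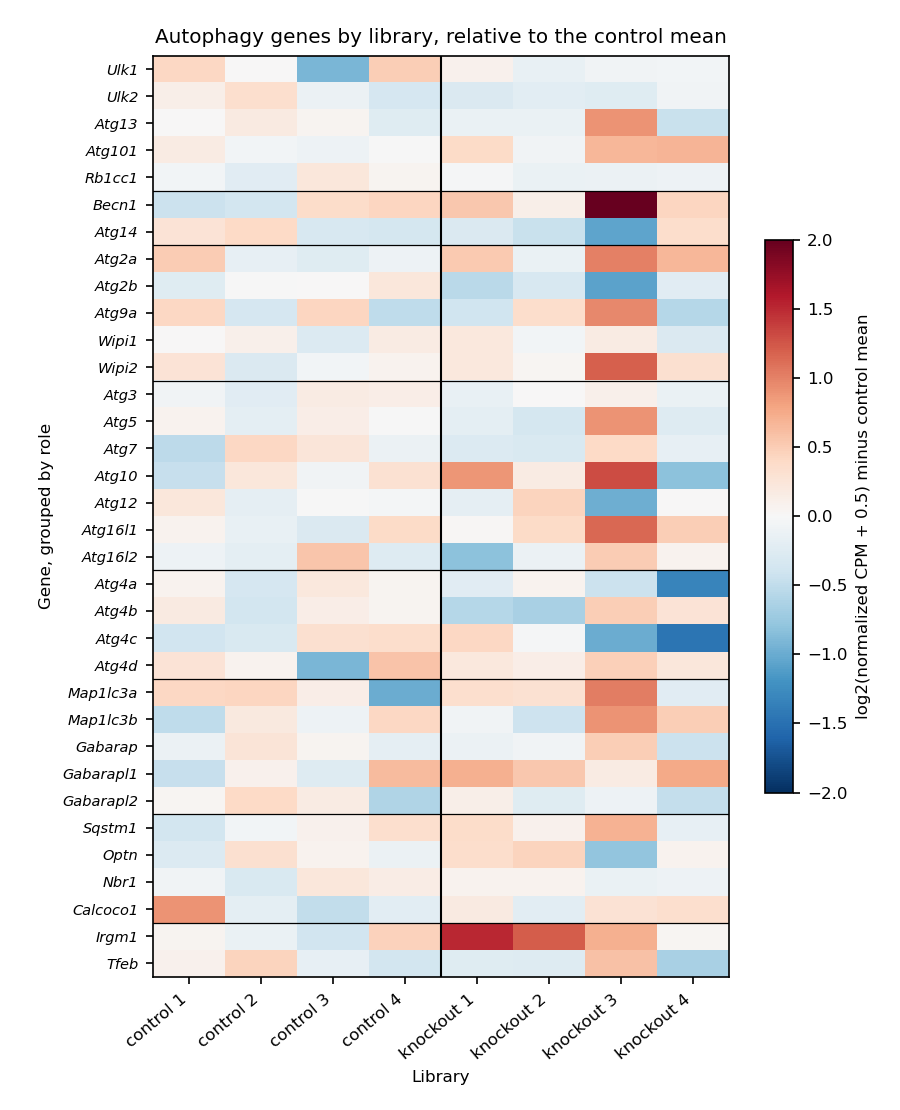
Log2 of normalized CPM plus 0.5 minus the control mean, for the 34 tested autophagy genes (rows, grouped by role) in each library (columns). Knockout 3 holds the highest value for 14 genes, and the strongest colour among knockouts 1 and 2 is in Irgm1.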

How the data were processed

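Paneth cells of 4 controls and 4 knockouts were sequenced by the authors, with GSNAP as the aligner and mm10 as the genome. Reads that mapped to 1 place were assigned to Ensembl 92 genes by featureCounts 1.6.3, and the authors deposited these whole-number counts with no scaling. PCR copies were counted, so floors cover counting error only, whereas p-values and the intervals of fold changes rest on the spread among mice of 1 genotype. Groups came from the labelled genotype, replicate numbers were given here in accession order, and the number of table columns without a sample was 0. The 92 spike-in rows, at most 11 counts per library, were left out. Over genes, no pair of libraries came closer than a chi-square of 8.712 per degree of freedom, so none were duplicates.

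Genes passing filterByExpr (minimum count 10, minimum total 15) were fitted together with edgeR 4.0.16 (TMM, robust quasi-likelihood test, R 4.3.3), and p-values were adjusted by Benjamini-Hochberg over all 13439 genes. DESeq2 1.42.0 and limma 3.58.1 (voom) were alternatives, besides other scalings, filters, the library set as a block, single sets and each library left out. Standard errors were approximated from the F statistic. The steps were checked on simulated counts. At the limits for a call, edgeR recovered 11.7% of simulated 2-fold changes and 78.1% of 4-fold changes, and 6.5% of its calls were false. DESeq2 recovered 25.5% and 86.5%, and 20.7% of its calls were false. Most 2-fold changes would therefore be missed with edgeR. Promoter windows were read from a RefSeq table on GRCm38.p6. Of the 35 genes, 11 share exon bases with another gene and 5 share over 10%, and Atg4d (19.3%, with Kri1) is the fifth of these.

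The members and lists were chosen with earlier results of these data known. Values for every library were given for members with an unadjusted p under 0.05 or non-overlapping genotypes, the highest per kb in each role, and Atg16l1, Atg5, Atg7, Irgm1, Lrrk2, Sqstm1, Map1lc3b and Tfeb. Of the other 58 genes, the 4 with the lowest unadjusted p were named. Of the marker lists, goblet markers had a median log2 fold change of 0.03 with wide spread (−0.37 without knockout 3), enterocyte markers −0.72 and sorting markers −0.17. The 10 Paneth markers had −0.06, and −0.58 without knockout 3. A marker and an interferon-inducible gene on the lists examined are not reported here.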

Additional observations from a re-analysis of the deposited data

Results flagged for a closer look

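In 78 groups of 4 libraries (the 35 genes and the 4 other named autophagy genes in each genotype), 7 had a highest or lowest library whose gap to the next, divided by the range of the group, exceeded Dixon's 95% critical value, and about 4 would do so by chance at either end, since chance flags about 1 in 20 groups. In all 7 it was the highest library. In knockout 3 these were Atg5 with a ratio of 0.917 (37.8 normalized CPM against 15.7 to 17.5 in the other knockouts), Becn1 with 0.913 (29.7 against 5.63 to 7.72) and Atg13 with 0.84 (15.3 against 5.7 to 7.24). In control 1 they were Atg2a with 0.859 (4.26 against 2.33 to 2.6) and Calcoco1 with 0.858 (2.95 against 0.808 to 1.11). Atg16l2 in control 3 had 0.841 (6.46 against 3.47 to 3.95) and Retreg1 in control 4 had 0.865 (40.4 against 22.9 to 25.2). The cause was not tested.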

How the results depend on the processing

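The count of autophagy genes called at the adjusted p of 0.05 or at 0.1 was 0 in every alternative fitted on both library sets, except without the filter on low counts, where it was 2 for both (Irgm1 and Becn1), and Irgm1 was also called within the first set alone. For the other autophagy genes, DESeq2 called 1 (Irgm2) at 0.1, and the fits that left out 1 library called 0 to 2 at 0.05 and 0 to 2 at 0.1, with 2 only without knockout 3. The count of autophagy genes with non-overlapping genotypes was 1 with upper-quartile factors and 0 to 2 with 1 library left out. Groups with fewer libraries separate more easily, and the share over all tested genes is not given for these settings, so the counts show no gain. The median log2 fold change of the autophagy genes was −0.05 with limma-voom, −0.07 (without knockout 3) to 0.10 (without knockout 4) with 1 library left out, and 0.20 within the second library set. Single genes reversed as follows: Wipi1 to −0.04 with upper-quartile factors, −0.01 within the second set and −0.08 to 0.10 with 1 library left out; Atg5 to −0.22 with limma-voom and −0.22 within the first set, and −0.28 to 0.24 with 1 left out; Atg7 to 0.09 within the second set and −0.30 to 0.04 with 1 left out; Atg4c to 0.61 within the first set; Map1lc3b to −0.09 with limma-voom and −0.11 within the first set; and Tfeb −0.69 to 0.05 with 1 left out. Gabarap, at 0.00 in the main comparison, had no direction to keep, with −0.18 within the first set, 0.18 within the second and −0.21 to 0.11 with 1 left out. The remaining values among the 300 for 16 genes kept their direction. The cause was not tested. No paired analysis was run. The methods of the study name littermates, but the sources used here do not state which mice were littermates of each other. The replicate numbers were given here and pair no mice, and the titles of only 1 control and 1 knockout share an animal number. Any relation between littermates was therefore left out of the fits. The library set as a block changed no call. Counts of 6 to 17 limit Tfeb, and 0 to 5 limit Lrrk2.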

Other observations

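Genes known to be induced by interferon were looked at after the values of Irgm1, Irgm2 and Igtp had been seen, so they are given as values with no test. Knockout 1 was the highest of the 8 libraries for 23 of the 26 genes, the exceptions being Irf7, Ifit3 and Bst2. Over all tested genes it was the highest for 9.26%. Some of the 26, Gbp2 and Ifit3 among them, did not pass the filter on low counts. The GTPase gene Tgtp2 had 0.125, 0, 0 and 1.18 normalized CPM in controls 1 to 4 and 16.1, 6.37, 0 and 1.94 in knockouts 1 to 4. Gbp2, a guanylate-binding protein gene, had 0.627, 0, 0 and 0.316 in controls and 24.4, 2.12, 0 and 0.546 in knockouts, and Gbp7 had 3.02 to 6.10 in controls and 24.0, 6.09, 5.99 and 3.03 in knockouts. Irf9, a transcription factor of interferon signalling, had 8.08 to 11.7 in controls and 24.8, 17.7, 14 and 11.4 in knockouts. B2m, part of MHC class I, had 290 to 328 in controls and 506, 442, 288 and 312 in knockouts. The other 3 knockouts were not above the controls in every gene. Oasl2 had 7.90 to 14.2 in controls and 15.6, 8.38, 3.76 and 4.00 in knockouts, and Irf7 had 9.08 to 24.3 in controls and 17.5, 13, 9.51 and 5.34 in knockouts.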
